A study of Mus musculus with 6 samples.

Results

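The fibroblast and adipocyte progenitor cells of mouse visceral fat were described from single-cell RNA sequencing of cells stained for CD45 and CD11b and sorted. These cells were taken as every kept cell with at least 6 UMIs (unique molecular identifiers, each counting 1 captured RNA molecule) of Col3a1 and Col1a2 together, which encode chains of type III and type I collagen. The rule found 214 progenitor cells among 2114 kept cells. A cell was kept if it had at least 200 genes detected and at most 10% of its UMIs from mitochondrial genes, and a barcode listed in several samples was used in the sample where it had most UMIs. The 6 samples were mouse epididymal fat, 3 labelled with a control diet and 3 labelled HFD, a high-fat diet. The labels give diet as the sole difference between the groups, and name neither strain, age nor duration of feeding. They also do not state that the 3 samples of a diet came from separate animals, so the p-values below reflect only how far these samples vary, part of which may be technical.

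Adipose progenitors are stromal cells that lie along blood vessels and in the connective tissue of fat. They secrete collagens, proteoglycans and elastic fibre proteins, and some of them can become adipocytes when lipid has to be stored. Surface PDGFRA, CD34 and SCA-1 (encoded by Ly6a) define them in flow cytometry, and they lack CD45, the pan-leukocyte antigen encoded by Ptprc. In mouse fat a Dpp4+ Pi16+ interstitial group has been described as less committed than Icam1+ preadipocytes, while a group expressing F3 has been described as inhibiting fat cell formation.

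Progenitor cells were few in the control samples. Control 1, 2 and 3 held 8, 2 and 9 of them, and HFD 1, 2 and 3 held 75, 52 and 68, which makes 19 of 986 kept control cells and 195 of 1128 kept HFD cells. The sums of UMIs over progenitor cells were 94712, 14505 and 65283 in the controls and 552060, 412371 and 442099 in HFD. A progenitor cell had a median of 7148 UMIs, against 9099 in the 1900 other kept cells. The files shared many cell barcodes: of 2195 distinct barcodes 1082 were listed in several samples. Among progenitor cells this was so for 13 of 19 control cells (68.4%) and 36 of 195 HFD cells (18.5%), and among other kept cells for 54.3%. The origin of such a cell was taken from its UMIs alone, so control values may include cells of other samples. A progenitor cell's second entry held between 0.111 and 0.313 times the UMIs of its largest. Control 2, with 2 progenitor cells, entered no test of genes, and its values are printed beside the others.

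By their markers the cells were mesenchymal and not adipocytes, with sparse leukocyte sort antigens. Dcn, encoding the proteoglycan decorin, and Serping1, encoding the C1 inhibitor, had a UMI in 100% of the 214 cells. The surface antigen genes followed, with Ly6a in 99.5%, Cd34 in 86.0%, Pdgfra in 81.3% and Pdgfrb in 64.5% of them. Of 8 adipocyte markers Adipoq, Plin1, Lep, Retn and Pck1 had no UMI in any progenitor cell, and Pparg, the master regulator of adipocyte formation, had a UMI in 14.95%. Of 12 endothelial markers 8 had a UMI in at least 1 progenitor cell, and the list summed to between 0 and 72.4 CPM (a gene's UMIs scaled to a common total of summed UMIs) in the 6 samples, with Cdh5, Vwf, Flt1 and Mmrn2 at 0. In other kept cells it summed to between 23.6 and 77.4 CPM. Of 12 mural cell markers 11 had a UMI, and the list summed to between 153 and 303 CPM, above the 3.44 to 19.5 CPM of other kept cells. Pdgfrb, which progenitor cells share with mural cells, gave 196, 192 and 156 CPM of that sum in HFD 1, 2 and 3, while the pericyte genes Cspg4 and Rgs5 were found in 0 and 1 of the 214 cells. Schwann cell markers summed to between 0 and 21.1 CPM, with Sox10 at 0, and to between 15.3 and 28.2 CPM in other kept cells. The sort antigens were sparse: Ptprc was detected in 13.1% of progenitor cells and Itgam, encoding CD11b, in 7.48%, against 70.4% and 57.7% of 1079 cells chosen by macrophage markers. After each cell was thinned to 2500 UMIs the shares were 5.14% and 2.34% in progenitor cells and 36.0% and 26.9% in the macrophage cells. These shares lay below those of a class that carries the antigens, and how the cells passed the sort was not tested. Other leukocyte genes were widely detected, with a UMI of Lyz2 in 100%, Cd74 in 99.5% and Tyrobp in 77.1% of progenitor cells. Their levels were 1265, 1898 and 216 CPM, against 15029, 24098 and 2742 CPM in the macrophage cells. Doublets were not called here.

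The rule's threshold fell in a sparse stretch. Only 45 cells had 3 to 5 UMIs of the rule genes, just outside the rule, and 24 had 6 to 8, just inside. Dcn stood at 1795 CPM in the cells just outside, 23363 CPM in those just inside and 18744 CPM in the 190 cells with 9 or more. Pdgfra was detected in 24.4%, 79.2% and 81.6% of these bins. The median share of UMIs from macrophage marker genes was 3.05% in the cells just outside, close to the 3.69% of cells with no rule UMI, and 0.268% in those just inside. The cells just outside also had more UMIs, with a median of 17932 against 5503. Of all 214 progenitor cells, 2 carried a share of macrophage UMIs above 0.946%, the 5th percentile of cells without any rule UMI: a cell of control 1 with 2.19% and 30 C1qa UMIs, and a cell of HFD 1 with 3.01% and 52. A further 2 cells, of control 3 and HFD 3, carried mesothelial UMIs, 13 and 102 of them, Upk3b included.

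**Figure D1:**
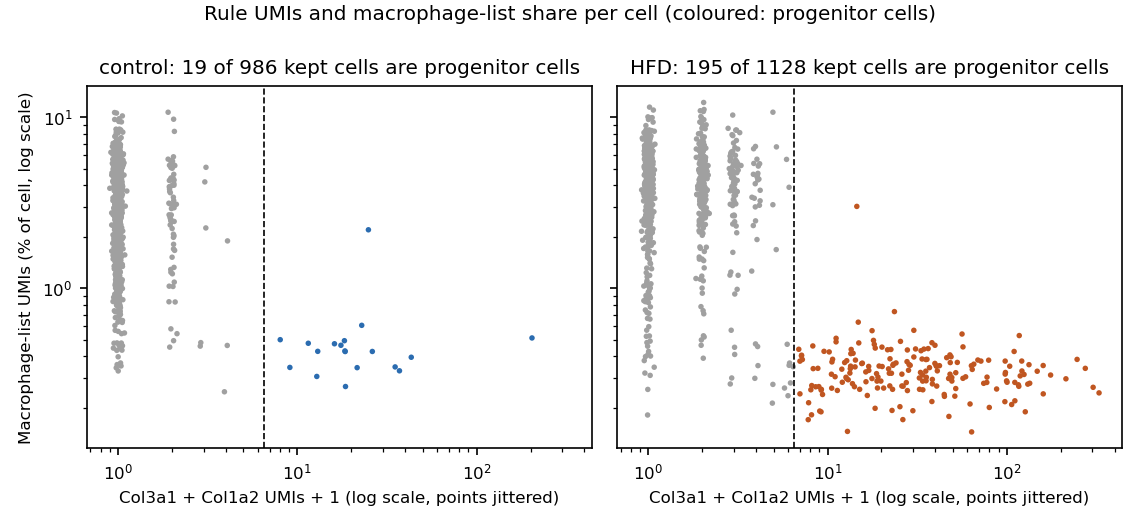
Each point is a kept cell, control on the left and HFD on the right, placed by its UMIs of Col3a1 and Col1a2 together plus 1 and by the share of its UMIs from macrophage marker genes in percent, both on log axes. Coloured points right of the dashed threshold are progenitor cells, and all but 2 of them lie below 0.946%, while the cells just left of it lie on both sides of that share.

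Progenitor cells made up a larger share of kept cells in every HFD sample than in any control sample. The share was 2.06%, 0.769% and 2.66% in control 1, 2 and 3 and 16.6%, 17.6% and 17.9% in HFD 1, 2 and 3, with means of 1.83% ± 0.968 (SD, n = 3) and 17.4% ± 0.708 (SD, n = 3). The groups did not overlap, and the difference of 15.5 percentage points had a two-sided exact permutation p of 0.1, the smallest that 3 samples against 3 allow. Over barcodes listed in 1 sample only, a choice made after the overlap was seen, the shares were 1.14%, 0 and 2.38% against 24.9%, 27.7% and 30.9%. Counted over all entries as deposited they were 1.64%, 2.03% and 2.06% against 9.90%, 7.98% and 9.44%. A share of sorted cells moves with the gate as well as with the tissue, and the 2 cannot be told apart here.

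Genes that marked progenitor cells against the other kept cells followed from the rule and are given as a description. Among 659 genes with at least 200 CPM in progenitor cells of each HFD sample, 119 were at least 10-fold higher than in the other kept cells of the same sample in all 3, and 52 at least 50-fold. Plac9b, a small secreted protein, led with a fold of at least 143 in every HFD sample. Fstl1, a follistatin-like glycoprotein, and Col1a1, the other chain of type I collagen, reached at least 104. Next came Ccdc80 with at least 92.0, the type V collagen chain Col5a2 with 91.4, the microfibril protein Mfap5 with 90.6 and the basement membrane chain Col4a1 with 90.3. Clec3b (tetranectin), the protease Mmp3 and Col6a3 had lowest folds of 83.3, 78.1 and 74.7. The remaining 10 were Col15a1, Dpt, Pcolce2, Mgp, Igfbp6, Prss23, Islr, Adamts5, Cpxm1 and Pla1a, the last with a lowest fold of 65.5. With at least 10 rule UMIs the number of genes past 50-fold was 15, since the cells left out of the class then stood among the others, and past 10-fold it was 115.

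Some matrix genes reached very high levels. Dcn stood at 27716, 29783 and 22288 CPM in the progenitor cells of control 1, 2 and 3 and at 18512, 18100 and 18125 CPM in HFD 1, 2 and 3. Every control value was above every HFD value, but edgeR's quasi-likelihood test of controls 1 and 3 against HFD gave a log2 fold change of -0.44 ± 0.14 (SE) with a Benjamini-Hochberg adjusted p of 0.205. Sparc, an acidic collagen-binding protein, stood at 3706, 4068 and 1608 against 2761, 5088 and 3214 CPM, with the groups overlapping. Igfbp7 stood at 3041, 4550 and 3600 against 2244, 2675 and 2425 CPM, and C3, the central complement protein, at 1531, 1241 and 2298 against 2114, 1419 and 2015 CPM.

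Within progenitor cells diet changed few genes past the threshold, in both directions. The test compared summed UMIs of controls 1 and 3 with those of HFD 1, 2 and 3 over 5362 genes. At an adjusted p below 0.05 in edgeR's quasi-likelihood test, 18 genes were higher in HFD, 0.336% of those tested, and 27 were lower, 0.504%. The 18 include the rule gene Col3a1, whose UMIs were used to choose the cells, so its call is not counted as a finding. The median log2 fold change of all genes tested was 0.03. In 44 of the 45 genes called the 5 sums did not overlap between diets, against 34.8% of all genes tested. The calls were made on these same 5 sums, so this count is no separate support for them. Counts depended on the library left out: without control 1 they were 75 higher and 37 lower, without control 3 41 and 73, without HFD 1 12 and 14, and without HFD 2 10 and 13. All 45 genes kept their direction in each of these, and in the fit without HFD 3. Over barcodes listed in 1 sample only, where the controls rest on 2 and 4 cells, 41 genes were higher and 20 lower, and 18 of the 41 genes that could be tested again were called again. With the 2 progenitor cells of control 2 included, 38 of 42 were. With a threshold of 3 rule UMIs, which adds the cells of mixed content described above, 3 genes were higher and 5 lower.

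Among the 27 genes lower in HFD progenitor cells were Hsd11b1, Inmt, Sult1e1 and Gsta3, which encode enzymes and are described together without a list or test behind the grouping. Hsd11b1 (ENSMUSG00000016194), which regenerates active glucocorticoid inside cells, stood at 549, 1586 and 827 CPM in control 1, 2 and 3 and at 143, 148 and 124 CPM in HFD 1, 2 and 3. All 3 controls lay above all HFD samples, with a log2 fold change of -2.26 ± 0.23 (SE; edgeR adjusted p = 4.43e-05), and the gene was called in all 17 alternative fits. Inmt, an N-methyltransferase of small amines, stood at 2228, 1241 and 2359 against 464, 582 and 308 CPM. Its fall of -2.33 ± 0.21 (edgeR adjusted p = 2.01e-05) was spread over 17 of 19 control cells, and over barcodes listed in 1 sample only it was -1.35 with an edgeR adjusted p of 0.067. Sult1e1, the estrogen sulfotransferase, stood at 1383, 276 and 705 against 185, 201 and 199 CPM. Its log2 fold change was -2.44 ± 0.25 (edgeR adjusted p = 4.43e-05), but 1 cell gave 70.2% of its UMIs in control 1, and over barcodes listed in 1 sample only the value was -0.85 with an edgeR adjusted p of 0.36. Gsta3, a glutathione transferase, stood at 190, 0 and 214 against 48.9, 14.6 and 52.0 CPM (-2.31 ± 0.44, edgeR adjusted p = 0.019), and its call was lost without HFD 1, with an adjusted p of 0.078.

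Trf, Vwa1, Cp and Ltbp4 also fell. Ltbp4 was the 1 fall among 14 elastic fibre genes, and no gene fell among 11 proteoglycan, 17 adhesive matrix, 17 collagen-processing or 15 matrix protease and inhibitor genes tested. Trf, encoding the iron carrier transferrin, stood at 2534, 207 and 2742 CPM in the controls and 558, 417 and 452 CPM in HFD, so that control 2, outside the test, was below every HFD sample. Its log2 fold change of -2.44 ± 0.17 had an edgeR adjusted p of 9.65e-07, while 1 cell gave 76.0% of its UMIs in control 3 and the value over barcodes listed in 1 sample only was -0.11 with an adjusted p of 0.97. Vwa1, a matrix protein of basement membranes, stood at 264, 345 and 276 against 72.5, 67.9 and 49.8 CPM (-2.05 ± 0.30, edgeR adjusted p = 0.00234). Its control and HFD values were well apart, and 16 of 19 control cells held a UMI. Cp, encoding the copper carrier ceruloplasmin, stood at 465, 345 and 490 against 96.0, 158 and 154 CPM, again without overlap (-1.81 ± 0.27, edgeR adjusted p = 0.00274). Over barcodes listed in 1 sample only Vwa1 gave -1.81 and Cp -1.53, with edgeR adjusted p of 0.14 and 0.096. Ltbp4, which binds latent TGF-beta, fell by 1.38 on the log2 scale (edgeR adjusted p = 0.0268), and that call was lost without control 3, HFD 1 or HFD 2, with adjusted p of 0.19, 0.14 and 0.13.

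Of 17 cytokine and chemokine genes tested, 2 fell, none rose, and the median log2 fold change was -0.48 against 0.03 over all genes tested. Ccl11, encoding eotaxin-1, which draws eosinophils, stood at 2618, 4412 and 1823 CPM in the controls and 1172, 1375 and 1201 CPM in HFD (-0.83 ± 0.18, edgeR adjusted p = 0.0438). The groups did not overlap, and the call was lost without control 1, HFD 1, HFD 2 or HFD 3, with adjusted p between 0.098 and 0.40. Ccl2, the main monocyte chemokine, stood at 2640, 207 and 628 against 234, 175 and 647 CPM, the 1 called gene whose 5 sums overlapped (-2.25 ± 0.49, edgeR adjusted p = 0.044), and gave -0.70 with an adjusted p of 0.44 without control 1. Its call was also lost without HFD 1 or HFD 2, with adjusted p of 0.27 and 0.22. Ccl2 was higher in the other kept cells of every sample, at 2950, 1624 and 2147 CPM in the controls and 428, 634 and 661 CPM in HFD. The test of the difference between the cell classes gave 0.23 ± 0.21 for it (edgeR adjusted p = 0.76). Cxcl1, a neutrophil chemokine, stood at 2840, 7032 and 2083 against 770, 989 and 1620 CPM, without overlap, and missed the threshold (-1.12 ± 0.26, edgeR adjusted p = 0.061). Il6 stood at 317, 552 and 61.3 against 206, 289 and 495 CPM with the groups overlapping, and Cxcl12, a ligand of CXCR4, at 475, 620 and 138 against 565, 674 and 409 CPM.

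A further set of falls was in genes that other cells of the samples expressed more strongly. Retnla (ENSMUSG00000061100), encoding the secreted protein RELM-alpha of alternatively activated macrophages, stood at 1858, 1034 and 1348 CPM in control progenitor cells and 74.3, 97.0 and 158 CPM in HFD. In the other kept cells it stood at 12357, 8509 and 10059 CPM in the controls and 464, 870 and 1591 CPM in HFD. The progenitor level was thus 15.04%, 12.2% and 13.4% of that of the other cells in the controls and 16.01%, 11.1% and 9.95% in HFD. Its log2 fold change in progenitor cells was -3.87 ± 0.27 (edgeR adjusted p = 9.65e-07), and the test of the difference between the cell classes gave 0.02 ± 0.21 (edgeR adjusted p = 1). Lyz1, a lysozyme, stood at 232, 0 and 45.95 against 10.9, 9.70 and 11.3 CPM and was also higher in the other cells of every sample (-3.78 ± 0.59, edgeR adjusted p = 0.00463), with an adjusted p of 0.51 without control 1. Of 6 antigen presentation genes tested 4 fell, H2-Eb1 by 1.69, H2-Ab1 by 1.64, H2-Aa by 1.56 and Cd74 by 1.499 on the log2 scale, with edgeR adjusted p between 0.00479 and 0.0136, and the median of the 6 was -1.54. Without control 1 the edgeR adjusted p of H2-Eb1, H2-Ab1 and Cd74 were 0.29, 0.18 and 0.075, and without HFD 1 or HFD 2 none of the 4 was called.

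Of the 10 other genes that fell, Smpd3, encoding a neutral sphingomyelinase, stood at 253, 68.9 and 91.9 against 9.06, 12.1 and 20.4 CPM (-3.71 ± 0.51, edgeR adjusted p = 0.00164) and gave -2.59 with an adjusted p of 0.15 without control 1. Ifitm1 stood at 84.5, 0 and 245 against 9.06, 12.1 and 20.4 CPM (-3.44 ± 0.55, edgeR adjusted p = 0.00479), with an adjusted p of 0.088 without control 3. Ogfrl1 stood at 73.9, 0 and 138 against 16.3, 14.6 and 20.4 CPM (-2.52 ± 0.52, edgeR adjusted p = 0.0269), with adjusted p of 0.22, 0.078 and 0.087 without control 3, HFD 1 and HFD 2. Penk, encoding proenkephalin, stood at 612, 896 and 1164 against 408, 395 and 387 CPM and Dpep1, a membrane dipeptidase, at 1637, 2068 and 1685 against 804, 1006 and 559 CPM, both without overlap. They fell by 1.10 and 1.06 on the log2 scale, with edgeR adjusted p of 0.0282 and 0.0256, and reached 0.27 without control 3 and 0.15 without HFD 1. The other 5, Cfp, Hp, Sult5a1, Nmb and Yam1, fell by 0.80 to 2.03 on the log2 scale, and each lost its call without HFD 1 and without at least 1 other library. Cfp was higher in the other kept cells of every sample, at 947, 638 and 496 CPM in the controls and 271, 355 and 317 CPM in HFD. Without control 1 the edgeR adjusted p was 0.57 for Cfp, 0.31 for Hp, 0.50 for Sult5a1 and 0.091 for Nmb, and Yam1 had 0.091 without HFD 1.

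Among the 18 genes higher in HFD progenitor cells were 3 matrix proteases and inhibitors, Mmp3, Timp1 and Ctsk. Mmp3 (ENSMUSG00000043613), encoding stromelysin-1, a protease of many matrix proteins, had no UMI in any of the 19 control progenitor cells and stood at 290, 354 and 457 CPM in HFD, in 72 of 195 cells. Against the floor of 3 counts in the 159995 UMIs of controls 1 and 3 together, which is 18.8 CPM, it was at least 19.6-fold higher (edgeR adjusted p = 0.000181). Timp1, an inhibitor of metalloproteases, stood at 63.3, 0 and 15.3 against 194, 449 and 378 CPM (2.96 ± 0.58, edgeR adjusted p = 0.0229). Its control level rests on 7 UMIs, and without HFD 2 its adjusted p was 0.11. Ctsk, encoding the collagenolytic cathepsin K, stood at 391, 276 and 245 against 879, 1038 and 780 CPM (1.47 ± 0.24, edgeR adjusted p = 0.00586, and 0.0505 without HFD 2). These 3 were the calls among 15 matrix proteases and inhibitors tested, none of which fell, with a list median of 0.53.

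Mgp (ENSMUSG00000030218), encoding matrix Gla protein, an inhibitor of calcification, was among the clearest rises. It stood at 1035, 0 and 659 CPM in the controls and 3914, 4222 and 4845 CPM in HFD, and 7 of 19 control cells held a UMI against 173 of 195 HFD cells. Its log2 fold change was 2.34 ± 0.21 (edgeR adjusted p = 1.74e-05). Bgn, encoding biglycan, stood at 919, 207 and 812 against 1650, 2182 and 1484 CPM (1.04 ± 0.20, edgeR adjusted p = 0.0215), with adjusted p of 0.093 and 0.11 without HFD 1 and HFD 2. Serpinh1, the collagen chaperone HSP47, stood at 644, 552 and 505 against 1319, 1540 and 1280 CPM (1.26 ± 0.20, edgeR adjusted p = 0.00463), with no overlap in either gene. Cilp, a cartilage matrix protein, stood at 0, 0 and 30.6 against 187, 216 and 149 CPM (3.84 ± 0.66, edgeR adjusted p = 0.00842), on 2 control UMIs of 1 cell. The ratio of the summed rates was 14.7, with an exact 95% counting interval of 4.02 to 122, and the gene lost its call without HFD 1 or HFD 2, with adjusted p of 0.068 and 0.063.

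Collagen genes did not pass as a group. None of 4 fibrillar collagen genes outside the rule and none of 13 other collagen genes was called, with list medians of 0.81 and 0.37. Col1a1 stood at 950, 896 and 551 CPM in the controls and 1230, 2187 and 1414 CPM in HFD, without overlap (1.08 ± 0.27, edgeR adjusted p = 0.079). Col3a1, which is a rule gene, stood at 1679, 2551 and 1425 against 2867, 5318 and 3497 CPM, and is given as a description. Of 17 adhesive matrix genes none was called (median -0.01), Fn1 standing at 1193, 276 and 1072 against 1317, 1205 and 1330 CPM. Of 17 collagen-processing genes 1 rose, Serpinh1, and of 14 elastic fibre genes Mgp rose and Ltbp4 fell.

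Antagonists of growth factor signalling rose in 2 of 9 cases. Nbl1, a secreted antagonist of bone morphogenetic proteins, stood at 106, 138 and 184 CPM in the controls and 676, 572 and 550 CPM in HFD (2.13 ± 0.28, edgeR adjusted p = 0.0012). Fst, encoding follistatin, which binds activin, stood at 148, 0 and 184 against 442, 483 and 348 CPM (1.39 ± 0.28, edgeR adjusted p = 0.0256), with adjusted p of 0.12 and 0.11 without HFD 1 and HFD 2. No gene among 14 receptors of growth factors and 12 progenitor surface antigens was called. Cd34 stood at 211, 276 and 291 against 489, 429 and 475 CPM, without overlap and with an edgeR adjusted p of 0.0945, and Pdgfra at 222, 207 and 337 against 377, 342 and 314 CPM, with the groups overlapping.

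Among immune and lipid genes, C4b, a complement component, stood at 190, 0 and 107 CPM in the controls and 456, 524 and 502 CPM in HFD (1.69 ± 0.28, edgeR adjusted p = 0.00586), the single call of 11 complement genes. Fgl2, a fibrinogen-like protein, stood at 31.7, 0 and 15.3 against 181, 245 and 244 CPM (3.15 ± 0.49, edgeR adjusted p = 0.00463), on 4 control UMIs. Both were without overlap, and over barcodes listed in 1 sample only Fgl2 gave 2.00 with an edgeR adjusted p of 0.23. Lpl, encoding lipoprotein lipase, which releases fatty acids for uptake, stood at 560, 345 and 352 against 1130, 1271 and 1190 CPM (1.37 ± 0.22, edgeR adjusted p = 0.00463). In other kept cells Lpl also rose, from 353, 744 and 1365 CPM to 2793, 2316 and 2197 CPM, above the progenitor level in every HFD sample. The test of the difference between the cell classes gave -0.20 ± 0.23 (edgeR adjusted p = 0.94). Of 18 lipid genes tested Lpl rose and Hsd11b1 fell, past the threshold in no other, and none of 16 adipocyte fate factors was called. Id2, an inhibitor of differentiation factors, stood at 31.7, 0 and 30.6 against 188, 184 and 129 CPM (2.42 ± 0.49, edgeR adjusted p = 0.0256), with an adjusted p of 0.11 without HFD 1 and without HFD 2. Meg3, a long noncoding RNA, stood at 31.7, 345 and 0 against 154, 315 and 190 CPM, so that control 2 was above all HFD samples. Controls 1 and 3 held 3 UMIs, a summed ratio of 11.3 with a counting interval of 3.84 to 55.3 (3.53 ± 0.71, edgeR adjusted p = 0.0256), and the adjusted p was 0.078 both without HFD 2 and with control 2 included. Gadd45g and Prss23 also rose, by 1.25 ± 0.28 and 1.36 ± 0.29 (edgeR adjusted p of 0.0464 and 0.0365), and lost their calls without HFD 1, 2 or 3.

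Pi16, a marker of the interstitial group of progenitors, stood at 84.5, 0 and 45.95 CPM in the controls and 574, 306 and 830 CPM in HFD (3.07 ± 0.54, edgeR adjusted p = 0.00924). The groups did not overlap, 6 of 19 control and 87 of 195 HFD cells held a UMI, and the adjusted p was 0.078 without HFD 1. It was the 1 call of 14 interstitial progenitor markers tested, whose median was 0.06. Over barcodes listed in 1 sample only the value of Pi16 was 1.33 with an edgeR adjusted p of 0.57. Its RNA was concentrated in the 17 cells of the fifth subset described below, at 4384 CPM against 175 CPM in the other progenitor cells. Of those 17 cells 6, 2 and 8 came from HFD 1, 2 and 3 and 1 from control 3. The part of that subset in the rise was not tested. Lpl was the 1 call of 16 markers of committed preadipocytes, and Mgp and Bgn were the 2 calls of 9 markers of the adipogenesis-inhibiting group.

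**Figure D2:**
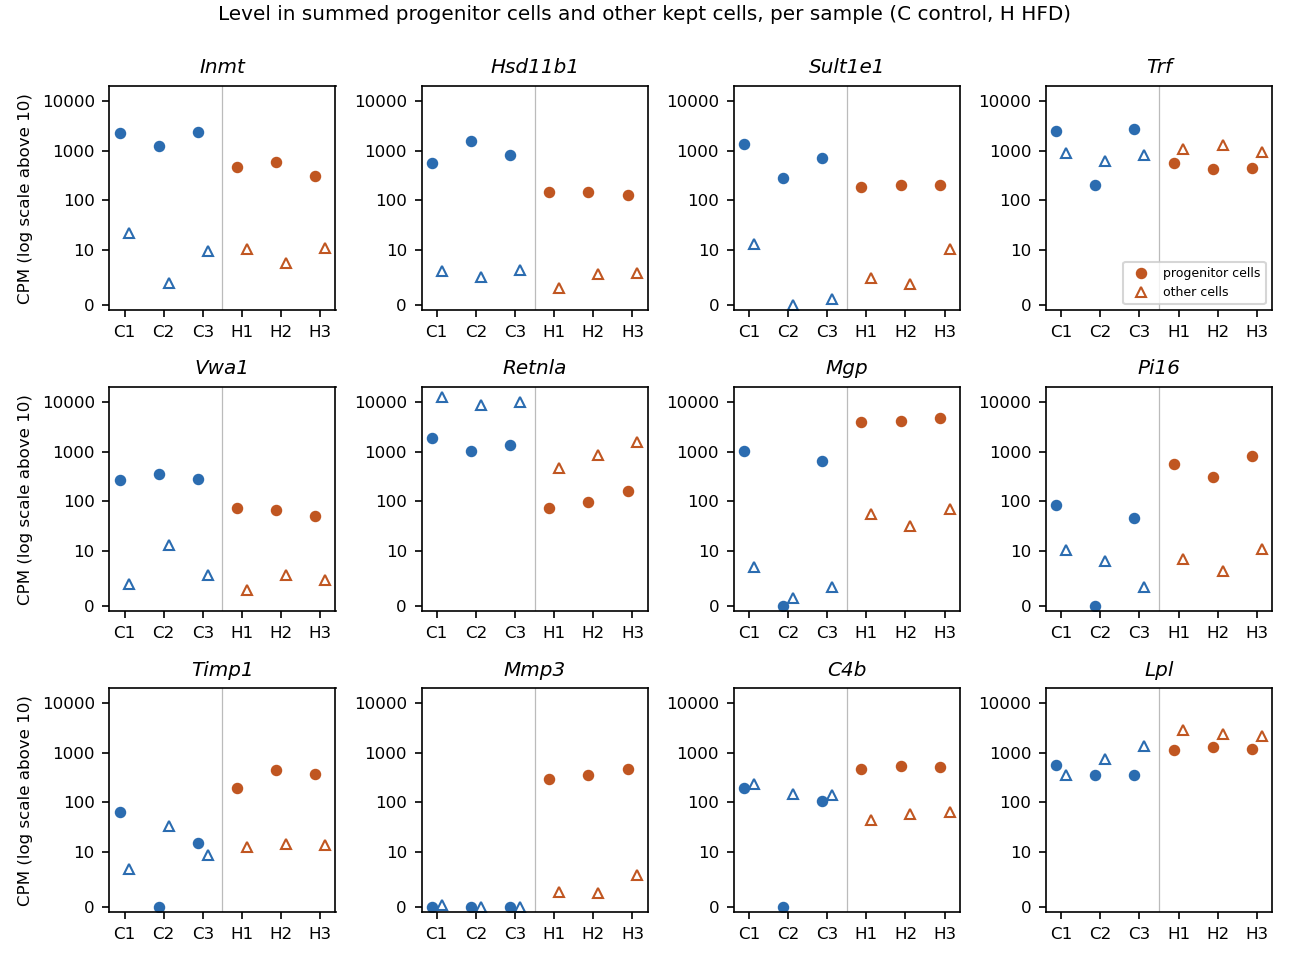
CPM of 12 genes in summed progenitor cells (filled circles) and in summed other kept cells (open triangles) of control 1 to 3 (C1 to C3, blue) and HFD 1 to 3 (H1 to H3, orange), on an axis that is logarithmic above 10 CPM and linear below. Inmt and Hsd11b1 are lower and Mgp, Pi16, Mmp3 and Lpl higher in progenitor cells of every HFD sample than of any control, while Retnla is lower in both cell classes.

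Whether diet moved a gene differently in progenitor cells than in the other kept cells was tested as an interaction, with the sample as a term. Of 10585 genes, 187 had a higher HFD to control ratio in progenitor cells than in other cells, 1.77% of those tested, and 85 a lower one, 0.803%. The median over all genes tested was 0.23, or 0.09 when DESeq2's size factors were used in place of edgeR's. The edgeR fit put all weight on the spread shared between genes, with infinite prior degrees of freedom. These p-values therefore rest on that shared spread and not on each gene's own. The counts rest on control 1 in particular: without it 51 genes were higher and 23 lower. Without HFD 3 the genes lower numbered 55, and over barcodes listed in 1 sample only the counts were 58 and 14.

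Among genes called in that test with a mean of at least 50 CPM, Il6 had the largest positive difference. It stood at 317, 552 and 61.3 CPM in control and 206, 289 and 495 CPM in HFD progenitor cells, while in other cells it stood at 206, 178 and 139 CPM in control and 8.73, 6.30 and 7.31 CPM in HFD. The difference of the log2 fold changes was 5.44 ± 0.29 (edgeR adjusted p = 1.77e-76) and was called in every alternative fit. Fn1, encoding fibronectin, behaved alike, at 1108, 998 and 523 CPM in other control cells and 151, 165 and 189 CPM in other HFD cells, beside the progenitor levels given above (2.698 ± 0.21, edgeR adjusted p = 5.17e-34). C4b, which rose in progenitor cells, stood at 233, 143 and 140 CPM in other control cells and 43.8, 58.3 and 63.6 CPM in other HFD cells (3.78 ± 0.29, edgeR adjusted p = 2.97e-35). Lpar1, a lysophosphatidic acid receptor, stood at 63.3, 207 and 61.3 against 83.3, 99.4 and 86.0 CPM in progenitor cells and at 18.8, 11.1 and 15.1 against 1.16, 3.15 and 2.92 CPM in other cells (3.68 ± 0.54, edgeR adjusted p = 5.74e-09). Cd55, a complement regulator, gave 3.40 (edgeR adjusted p = 3.73e-15), but -0.03 without control 1, whose other cells held 46.04 CPM. Scd1 (3.01), Plac8 (2.75), Dapk1 (2.73) and Tmem176b (2.61) were also higher, with edgeR adjusted p of 0.000288 or lower. Without control 1 Scd1 and Dapk1 had edgeR adjusted p of 0.17 and 0.061.

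Among the called genes of at least 50 CPM, several with a large negative difference were at or near 0 in other control cells. Vit (-5.74), Bicc1 (-4.87), Tm4sf1 (-2.75), Olfml3 (-2.73), Bdh2 (-2.58) and Fbln5 (-2.57) stood at 2.27 CPM or less in the other cells of every control sample, had edgeR adjusted p between 0.0175 and 0.0454, and were not called without control 1. For Bicc1 the progenitor levels were 106, 68.9 and 153 against 147, 148 and 158 CPM, and the other cells stood at 0 in all 3 controls and at 1.55, 3.15 and 2.92 CPM in HFD. The fitted values of Vit and Bicc1, both at 0 there in all controls, depend on the prior count and are no bound. Slc6a8 (-3.28) and Lims2 (-3.20) were higher in other HFD cells than in other control cells, Slc6a8 at 45.8, 44.1 and 38.3 against 1.06, 2.02 and 13.97 CPM, and neither was called without control 1. Ptgds (-4.32) came from 1 cell of control 1 that held all 361 control UMIs. Matrix RNA was also higher in other kept cells of HFD samples: Col3a1 stood at 6.88, 3.03 and 3.40 CPM in other control cells and 20.2, 32.8 and 23.9 CPM in other HFD cells, where progenitor cells were more numerous. The part of free RNA in that difference was not tested.

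**Figure D3:**
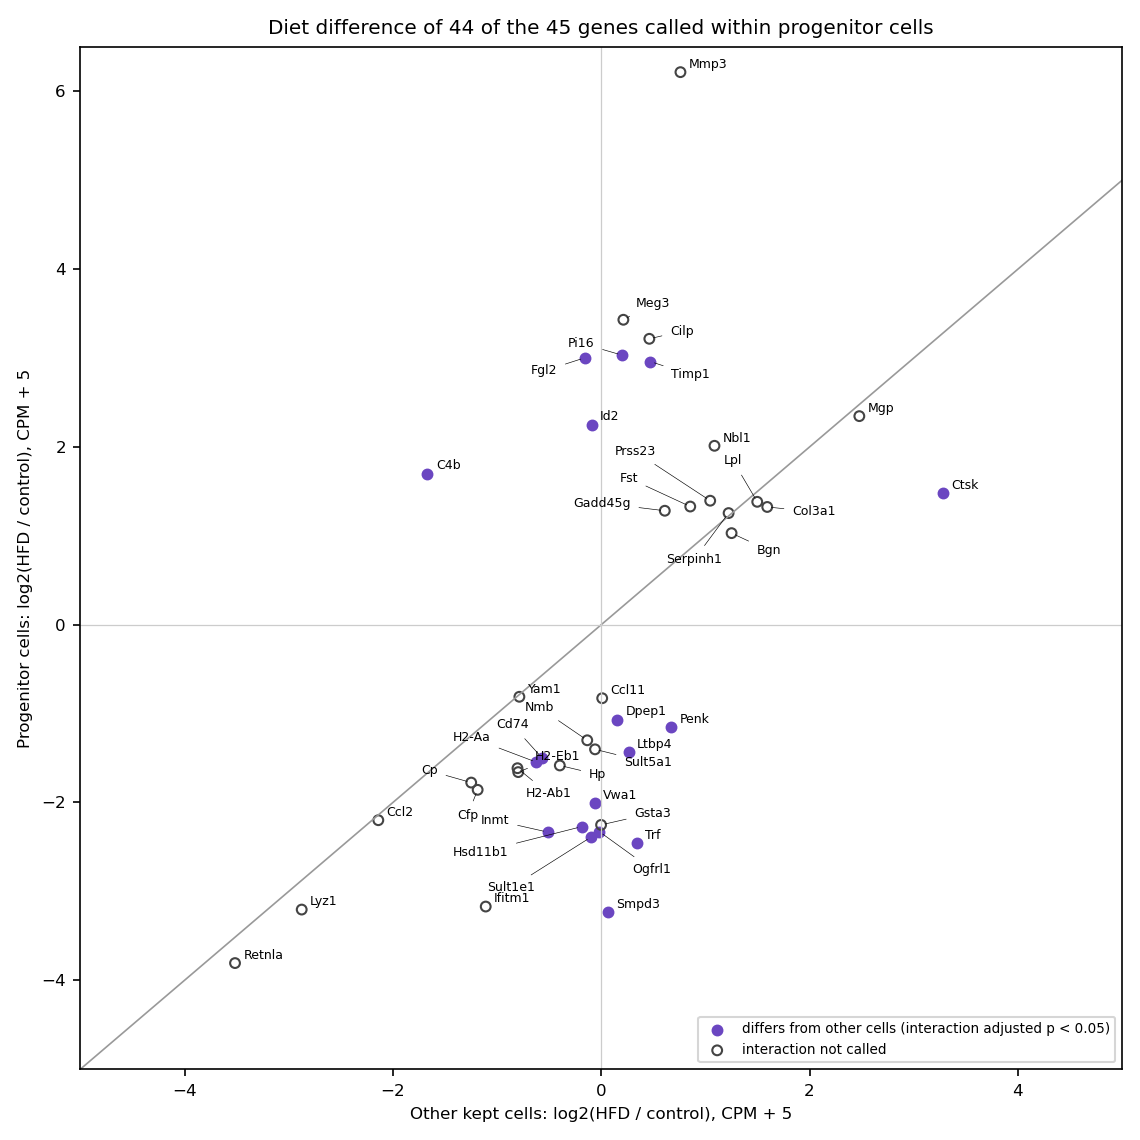
Each point is 1 of 44 of the 45 genes called by diet within progenitor cells, placed by the log2 ratio of HFD to control mean CPM (5 CPM added) in other kept cells and in progenitor cells, means being over controls 1 and 3 and HFD 1 to 3. Filled points were called in the test of the difference. The rule gene Col3a1 is among the points drawn. Retnla, Lyz1 and Ccl2 lie near the diagonal of equal change, while Trf, C4b and Ctsk lie far from it.

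Macrophage marker transcripts were found in progenitor cells at a fraction of their level in other kept cells that varied by gene and sample. The median ratio of the progenitor level to the level in other kept cells, over 22 macrophage markers, was 8.93%, 7.21% and 8.90% in HFD 1, 2 and 3, a mean of 8.35% ± 0.987 (SD, n = 3). In control 1, 2 and 3 it was 22.1%, 13.9% and 11.2%, and without the 1 control cell rich in macrophage UMIs control 1 stood at 15.2%. Single markers ranged from 3.52% to 23.8% in HFD 1, from 1.36% to 14.3% in HFD 2 and from 12.4% to 57.0% in control 1. Some genes of other macrophage lists stood higher: Gpnmb at 21.7%, 41.9% and 34.7% and Ctsd at 20.6%, 20.8% and 18.5% in HFD 1, 2 and 3. In control 1, 2 and 3 Gpnmb stood at 1508%, 88.8% and 32.0%, on 17, 1 and 13 progenitor UMIs, and Ctsd at 69.3%, 51.1% and 14.4%. Gpnmb thus exceeded the other cells in control 1, where those held 45 UMIs of it. In HFD 1, 2 and 3 Saa3 stood at 153%, 3.76% and 142%, and Cd209f at 155%, 3.67% and 8.48%, so that both exceeded the other cells in HFD 1. The Cd209f value of HFD 1 came mostly from 1 cell. That cell was in a group of 17, set apart by the finer clustering below, with Cd209f at 526 CPM against 6.33 CPM in the other progenitor cells. The summed level of the 22 markers in progenitor cells was 7539, 4068 and 3799 CPM in the controls and 3771, 3264 and 3698 CPM in HFD. No macrophage marker of 20 tested was called by diet within progenitor cells, and 3 had a positive log2 fold change (median -0.66). The 6 antigen presentation genes had median ratios of 9.64%, 7.33% and 10.1% in HFD and 19.6%, 13.7% and 10.9% in the controls. These are near those of the macrophage markers in the same sample, and the calls above on H2 genes, Cd74 and Retnla stand beside them. Of 3 immunoglobulin genes, the light chain Igkc lay lowest, at 0.698%, 1.42% and 1.68% in HFD 1, 2 and 3. Ighm stood at 3.51%, 5.34% and 5.81% and Igj at 4.12%, 6.70% and 6.67%, nearer the macrophage medians.

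The same transcripts were found in cells chosen by T cell markers, which were not screened for macrophage markers. Those cells held Cd74 at 17098 CPM and had a UMI of Itgam in 27.3%. They may thus include mixed cells, which was not tested, and are no clean reference for a class without such transcripts. C1qa, encoding a complement protein of macrophages, had a UMI in 79.0% of progenitor cells (95% Clopper-Pearson interval 72.9 to 84.2, covering counting error only), in 77.3% of 44 cells chosen by T cell markers and in 97.5% of 1079 cells chosen by macrophage markers. Median depths were 7148, 4338 and 8672 UMIs, and after thinning to 2500 UMIs, which left out 5 T cells and 44 macrophage cells, a UMI was found in 107 of 214 progenitor cells, in 53.8% of the T cells and in 90.05% of the macrophage cells. The thinned progenitor share lay within the T cells' 95% Clopper-Pearson interval of 37.2% to 69.9%, and the part of free RNA in it was not tested. C1qa levels were 297, 663 and 3164 CPM. In the reverse direction, Dcn had a UMI in 58.9% of the macrophage cells at 126 CPM and in 45.5% of the T cells. In progenitor cells it had 100% and 19107 CPM. The macrophage and T cells were drawn only from cells without a rule UMI, so their shares leave out cells with some collagen RNA. Dcn had a UMI in 77.9% of kept cells with 1 or 2 rule UMIs and in 55.4% of those with 0. Median depths of these were 13412 and 7896 UMIs. Pdgfra was in 1.20% of macrophage cells and in 0 of 44 T cells, where the 95% interval reaches 8.04%.

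Clustering of the 214 cells alone gave 5 subsets, described by the genes that define them and not compared between diets. The first subset, 55 cells from HFD samples only, was led by Socs1, a suppressor of cytokine signalling, at 348 CPM against 64.9 CPM in the other progenitor cells, and by Ptx3, Fgl2 and Il6. Il6 stood at 764 CPM there and 185 CPM elsewhere. The subset also held the highest level of 10 of 25 cytokine and chemokine genes. The second subset, 52 cells, held 17 of the 19 control cells and was led by Ptgds, which 1 cell carried, then Slpi, Hp and Sult1e1. Sult1e1 stood at 667 CPM there and 142 CPM elsewhere, Inmt at 1311 and 386 CPM and Hsd11b1 at 393 and 133 CPM, which are also genes lower in HFD progenitor cells. Of its 52 barcodes 18 were listed in several samples, and 11 of 13 mesothelial markers were highest in it. All 115 UMIs of the markers other than Wt1 in that subset came from the 2 cells with mesothelial UMIs given above.

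The third subset, 52 cells with 1 control cell, carried most collagen. Col3a1 stood at 7140 CPM against 2266 CPM in the other progenitor cells, Col4a1 at 1518 against 495 CPM, and Timp1 at 730 against 139 CPM, and 4 of 5 fibrillar collagen genes were highest there. The fourth subset, 38 HFD cells, was led by Mmp14, a membrane-bound metalloprotease, at 625 against 181 CPM, and by Tmem140, Txnip, Mmp11, Cfb, Fbln7, Fbln5 and Angptl4. It held the highest level of 8 of 18 committed preadipocyte markers and of 6 of 11 markers of the adipogenesis-inhibiting group, whose summed level was 10069 CPM there and 1338 CPM in the fifth subset.

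The fifth subset, 17 cells with 1 control cell, was the most distinct and can be called interstitial progenitor-like. Pi16 was detected in 17 of 17 of its cells at 4384 CPM against 175 CPM elsewhere, and within it stood at 4619, 3251 and 4962 CPM in HFD 1, 2 and 3. Dmkn stood at 448 against 8.96 CPM, Efhd1 at 309 against 7.58 CPM, the semaphorin gene Sema3c at 387 against 15.2 CPM and Cd55 at 1121 against 90.9 CPM. Of 18 interstitial progenitor markers 15 were highest there, with a summed level of 16662 CPM and 3637 to 5391 CPM in the other subsets. Committed preadipocyte markers summed to 2003 CPM there and to 4237 to 8242 CPM elsewhere, and the 2 rule genes to 2080 CPM, the lowest of the 5. At a finer resolution of 0.8 the same 17 cells stood alone, and the second subset divided into 35 and 17 cells, the former joined by 1 cell of the first subset. The latter 17 held 15 control cells, were led by Ptgds, Cd209f, Fcna and Wfdc17 and had 13 barcodes listed in several samples, so that control origin, shared barcodes and macrophage genes such as Retnla and Pf4 came together in them. The part of each was not tested.

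**Figure D4:**
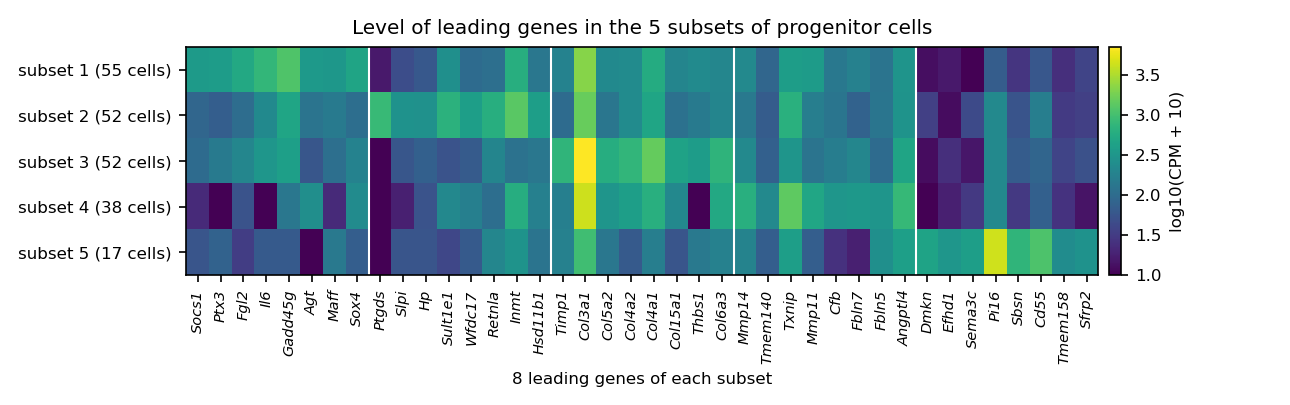
Level of the 8 leading genes of each subset (columns) in the 5 subsets of progenitor cells (rows), as log10 of CPM with 10 CPM added, brighter for higher. Pi16, Sema3c, Efhd1 and Cd55 are brightest in the fifth subset and the collagen genes in the third.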

How the data were processed

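The deposited files hold raw UMI counts per gene and cell barcode, made by the authors with Cell Ranger and with Seurat 2.4 and mm9 also listed, per the submitters' processing notes, which give no roles. Barcodes were assigned to samples and filtered as described above, and library totals ran from 4477100 to 6992602 UMIs. Counts were summed over progenitor cells and over other kept cells of each sample. Genes were tested with edgeR 4.0.16 (TMM, filterByExpr, quasi-likelihood, Benjamini-Hochberg adjustment) in R 4.3.3. Samples with under 3 progenitor cells were left out. The interaction was fitted over 10 sums with a term for sample. Residual degrees of freedom were 3 in both fits. On simulated counts the diet test recovered 56% of genes changed 4-fold (100% at 200 CPM or more) and 19% of those changed 2-fold over 5362 genes. The interaction test recovered 23% of genes changed 4-fold (100% at 200 CPM or more) and 3% of those changed 2-fold over 10585 genes. A gene that the interaction did not call may therefore still differ between the cell classes. Subsets came from scanpy 1.11.5 (1500 variable genes, 15 components, 15 neighbours, Leiden resolution 0.5). Named genes were the 20 with the largest lowest fold in HFD, the 12 largest rises and 12 largest falls past an adjusted p of 0.05 with a mean of at least 50 CPM, up to 4 genes of smallest p a list and 8 leading genes a subset. Genes outside that rule that were called, or that stood in a list, were named after their values were seen. The cells, the 46 gene lists (562 of 564 symbols found) and the tests were chosen with earlier results of these data known. Alternatives were DESeq2 1.42.0, other thresholds and filters, a replicate block and each library left out. No doublet caller was run. Some results are not reported here.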

Additional observations from a re-analysis of the deposited data

Results flagged for a closer look

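The diet effect differed between progenitor cells and other kept cells for 19 of the 45 genes called by diet within progenitor cells. The test was the interaction term of edgeR's quasi-likelihood test at a Benjamini-Hochberg adjusted p below 0.05. The 19 are 42.2% of those 45 and 6.99% of the 272 genes the interaction called. Over all 10585 genes tested the interaction called 1.77% as higher and 0.803% as lower. Both tests used the same progenitor sums, so the overlap is partly built in and is no separate support for either. Among genes that fell in progenitor cells the difference of log2 fold changes was negative for Smpd3 -3.80, Trf -2.51, Ogfrl1 -2.27, Sult1e1 -1.90, Penk -1.78, Vwa1 -1.65, Ltbp4 -1.60, Hsd11b1 -1.57, Inmt -1.36, Dpep1 -0.97, H2-Aa -0.62 and Cd74 -0.56. The 5 that rose in progenitor cells with a positive difference were C4b 3.78, Fgl2 3.69, Pi16 3.13, Id2 2.80 and Timp1 2.43. Ctsk rose in progenitor cells and still had a negative difference, -2.23. Its other cells stood at 5.29, 57.0 and 89.5 CPM in the controls and 653, 294 and 566 CPM in HFD. Without control 1 the difference of Ctsk was -0.31 (edgeR adjusted p = 0.88), and it was not called with DESeq2 (adjusted p = 0.34). H2-Aa and Cd74 were each called in 6 of 17 alternative fits, gave -0.25 and -0.14 without control 1, and had a positive difference of 1.05 and 1.01 at a threshold of 3 rule UMIs, not called. Smpd3 gave -1.84 without control 1 (edgeR adjusted p = 0.52). DESeq2 called 10 of the 19 and gave no adjusted p for 3. With a replicate block 4 of the 19 were called. Its edgeR adjusted p were 0.35 for Sult1e1, 0.18 for Inmt, 0.12 for Hsd11b1, 0.080 for Fgl2 and 0.062 for Pi16. Trf, Sult1e1 and C4b were called in every fit with 1 library left out, and of these the block called Trf and C4b.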

How the results depend on the processing

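The share of progenitor cells kept its direction in all 14 alternatives, with differences between 7.20 and 26.7 percentage points. Leaving out each library in turn gave 10 to 75 genes higher and 13 to 73 lower in HFD within progenitor cells, and 51 to 139 and 23 to 71 in the interaction. With 1 control left its sample is assumed to vary like the HFD samples. Within progenitor cells the genes higher numbered 3 at a threshold of 3 rule UMIs, 4 with all entries as deposited, 30 without cells rich in macrophage UMIs, 117 with no filter, 28 with control 2, 37 without the Ptgds-rich cell and 41 over barcodes listed in 1 sample only. The genes lower numbered 5 at that threshold, 6 as deposited and 61 with no filter. In the interaction the genes higher numbered 39 at 3 rule UMIs, 121 at 10, 95 with DESeq2 and 58 over barcodes in 1 sample, and those lower 19, 28 as deposited, 33 with DESeq2 and 14. Deviations of same-numbered samples correlated at -0.11 and -0.03. With only 2 control sums, whose deviations mirror each other, these values cannot show whether the labels' replicate numbers pair the samples. A replicate block gave 35 higher and 36 lower within progenitor cells, 25 and 4 in the interaction, and p = 0.25 by exact permutation for the share. Of the 45 genes, 6 were called again at 3 rule UMIs, 10 of 41 as deposited and 44 with DESeq2. Single genes that reversed were, at 3 rule UMIs, H2-Eb1 0.20, H2-Ab1 0.058, H2-Aa 0.31 and Cd74 0.31. As deposited Timp1 gave -0.13, and over barcodes in 1 sample Hp gave 1.95 and Nmb 0.044. In the interaction H2-Aa gave 1.05 and Cd74 1.01 at 3 rule UMIs, Ptgds 10.28 without its richest cell, Slc6a8 5.09, Olfml3 6.38, Fbln5 5.67 and Trf 0.012 over barcodes in 1 sample, and Cd55 between -0.026 without control 1 and 5.63 without control 3. The median macrophage ratio in HFD was 38.8% at 3 rule UMIs and 8.06% to 8.92% with 1 library left out, and 108 cells held a UMI of Dpp4 or Pi16 where 17 formed the Pi16-led subset. The cause of these changes was not tested. Control depth sets the limit: the 17 cells of controls 1 and 3, with 159995 UMIs, leave 18.8 CPM as the lowest level that 3 counts can show.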

Other observations

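Genes of acute activation were present in progenitor cells of both diets. Of 17 immediate early genes tested none was called by edgeR within progenitor cells, and 1 had a positive log2 fold change, with a median of -0.40 against 0.03 over all genes tested. Egr1 stood at 2439, 3033 and 3508 CPM in control 1, 2 and 3 and 1782, 1957 and 1785 CPM in HFD 1, 2 and 3, without overlap (edgeR adjusted p = 0.0782). Of 14 NF-kB inflammatory genes none was called either, with 1 positive and a median of -0.74, and of 7 heat shock genes none, with a median of -0.91. Among insulin-like growth factor genes none of 6 was called: Igf1 stood at 380, 68.9 and 245 against 248, 213 and 197 CPM, and Igfbp5 at 63.3, 0 and 30.6 against 138, 286 and 335 CPM (edgeR adjusted p = 0.0769). Krüppel-like factor genes were abundant, Klf2 at 3294, 3861 and 2849 against 1954, 2127 and 2298 CPM and Klf4 at 697, 827 and 2773 against 1045, 1123 and 1183 CPM, neither of them called by diet within progenitor cells.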
